A study of Rattus norvegicus with 4 samples.

Results

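The microRNAs of the miR-191 and miR-425 cluster were followed in extracellular vesicles (EVs), the membrane particles that cells release, of 2 rat cell lines. Members were all names beginning rno-miR-191a or rno-miR-425- in the deposited tables. They were 4 of 762 names in the table of all 4 libraries and 4 of 594 names in the table of PC12 alone, the same 4 in each: rno-miR-191a-5p, rno-miR-191a-3p, rno-miR-425-5p and rno-miR-425-3p (rno, for rat, is left off below). The 4 libraries fall into 3 groups. RMT1, labelled as a breast cancer cell, gave 2 EV libraries. PC12, labelled as a catecholamine cell and known as a line from a rat adrenal medulla tumour, gave 1 library titled EVu and 1 titled EVd, letters that the labels do not explain. No strain, age, genotype or treatment is labelled for any group, all libraries are of EVs, and each cell line is a single line. RNA was purified on miRNeasy columns and sequenced as QIAseq miRNA libraries. Whether the RMT1 pair stands for separate cultures is not labelled, so p-values measure a spread that may be technical, and cell line cannot be told apart from preparation batch.

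A hairpin precursor is cut into a duplex, and usually 1 arm, here the 5p arm, is kept by the Argonaute protein while the other is mostly lost. In mammals miR-191 and miR-425 are made from hairpins of a common primary transcript within the gene Dalrd3, and in human breast cancer cells the pair is known to respond to oestrogen receptor alpha. Because miR-191-5p is abundant in many tissues, it and miR-425-5p are widely used as reference microRNAs for normalizing measurements of other microRNAs, also in plasma and vesicles. The question put to these data was how steady the cluster was over the 4 libraries.

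The RefSeq annotation of rat build GRCr8 places both hairpins on the plus strand of chromosome 8, inside the bounds of Dalrd3 (chr8:118142009-118147082). The miR-191 hairpin lies at chr8:118142627-118142717 and the miR-425 hairpin at chr8:118143084-118143166, with 366 bases between them. The first bases of the 5p arms are 453 bases apart in GRCr8 and also 453 apart in the loci that the authors list for them. Those loci, 116698881 to 116698903 and 116699334 to 116699356 on chromosome 8, are listed without a build. All 4 members matched a RefSeq sequence. The hairpins are shown because the results turn on the balance of their arms; capitals mark the mature 5p and 3p arms, read 5′ to 3′.
miR-191 hairpin: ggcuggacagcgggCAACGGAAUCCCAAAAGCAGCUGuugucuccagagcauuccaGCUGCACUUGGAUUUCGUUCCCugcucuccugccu
miR-425 hairpin: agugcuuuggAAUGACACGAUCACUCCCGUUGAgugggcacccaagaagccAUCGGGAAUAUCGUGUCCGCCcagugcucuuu

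The mature strands are 23, 22, 23 and 21 bases long in the order below. They lie at chr8:118142641-118142663, chr8:118142683-118142704, chr8:118143094-118143116 and chr8:118143135-118143155 in GRCr8. They are shown because the seed, bases 2 to 8 and here in capitals, sets which messages a microRNA pairs with.
rno-miR-191a-5p: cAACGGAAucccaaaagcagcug
rno-miR-191a-3p: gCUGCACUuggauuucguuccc
rno-miR-425-5p: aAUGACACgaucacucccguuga
rno-miR-425-3p: aUCGGGAAuaucguguccgcc
The 4 seeds differ from each other. Among 693 mature rat names in the RefSeq table, 0 others share the seed of miR-191a-5p, of miR-425-5p or of miR-425-3p, and 1 other, miR-17-2-3p, shares that of miR-191a-3p. The 5p strands, lined up from their first base, have the same letter at 5 of 23 positions.

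Whole-number counts recovered from the table of all 4 libraries summed to between 338233 and 799224 per library. Defining epithelial microRNAs (miR-200c-3p, miR-205, miR-141-3p, miR-200a-3p and miR-200b-3p) together reached 11156 and 10813 CPM (counts scaled to a common library total) in RMT1 EV 1 and 2, against 119 in EVu and 73.9 in EVd. The 4 neuroendocrine and neural microRNAs together reached 1485 and 1576 CPM in RMT1 EV 1 and 2, 27053 in EVu and 24264 in EVd. Of these, miR-375-3p (2899 counts in EVu and 1023 in EVd) and miR-9a-5p (2018 and 1124) had 0 counts in both RMT1 libraries. miR-7a-5p was present in all 4 libraries, at 1187 and 1130 counts for RMT1 against 6901 for EVu and 6059 for EVd, and miR-124-3p had 1 count in EVd and 0 elsewhere. The 5 blood-cell microRNAs examined (miR-451-5p, miR-486, miR-144-3p, miR-223-3p and miR-142-3p) reached 1353 CPM in EVu, 59.1 in EVd, 21.3 in RMT1 EV 1 and 19.5 in RMT1 EV 2. miR-122-5p, of liver, had 33, 27, 42 and 9 counts in RMT1 EV 1, RMT1 EV 2, EVu and EVd. The part of such outside sources in the results below was not tested.

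miR-191a-5p, the main product of the cluster and in human a known repressor of the transcription factor EGR1, was among the most abundant microRNAs of every library. In the share of all counts it held 2.33% of RMT1 EV 1 (95% exact Clopper-Pearson interval 2.30% to 2.36%), 2.46% of RMT1 EV 2 (2.43% to 2.50%), 3.92% of EVu (3.86% to 3.98%) and 4.26% of EVd (4.20% to 4.33%). These came from 18633, 17653, 17134 and 14425 counts, in the same order. By this measure both PC12 libraries lay above both RMT1 libraries, and the RMT1 libraries differed from each other by more than counting error. Its rank by count moved little, from the 9th name in both RMT1 libraries to the 5th in EVu and the 7th in EVd. All intervals cover counting error only, and vesicles that carry the microRNA more often cannot be told apart from vesicles that carry more of it.

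miR-425-5p, known in human to repress NPPA, the precursor of atrial natriuretic peptide, was far scarcer. It had 143 counts in RMT1 EV 1, 122 in RMT1 EV 2, 344 in EVu and 218 in EVd. As shares these were 0.0179% (0.0151% to 0.0211%), 0.0170% (0.0141% to 0.0203%), 0.0787% (0.0706% to 0.0875%) and 0.0645% (0.0562% to 0.0736%). The RMT1 intervals overlapped each other and lay below both PC12 intervals. It ranked between the 80th and the 89th name in every library.

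The 3p arms were the minor products. miR-425-3p had 50, 40, 47 and 42 counts in RMT1 EV 1, RMT1 EV 2, EVu and EVd, nearly the same number in each although the library totals differ. As CPM these were 62.6, 55.8, 108 and 124, higher in both PC12 libraries. The share of RMT1 EV 1 (0.00464% to 0.00825%) and that of EVu (0.00791% to 0.0143%) had intervals that overlapped, while EVd (0.00895% to 0.0168%) lay above both RMT1 libraries. miR-191a-3p had 2 and 3 counts in RMT1, at or under the 3 counts that a count of 0 allows, and 11 and 8 in EVu and EVd, above them. Together the 4 members took 2.36% of RMT1 EV 1, 2.49% of RMT1 EV 2, 4.01% of EVu and 4.34% of EVd, and miR-191a-5p made up between 97.7% and 99.1% of the cluster's counts.

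**Figure D1:**
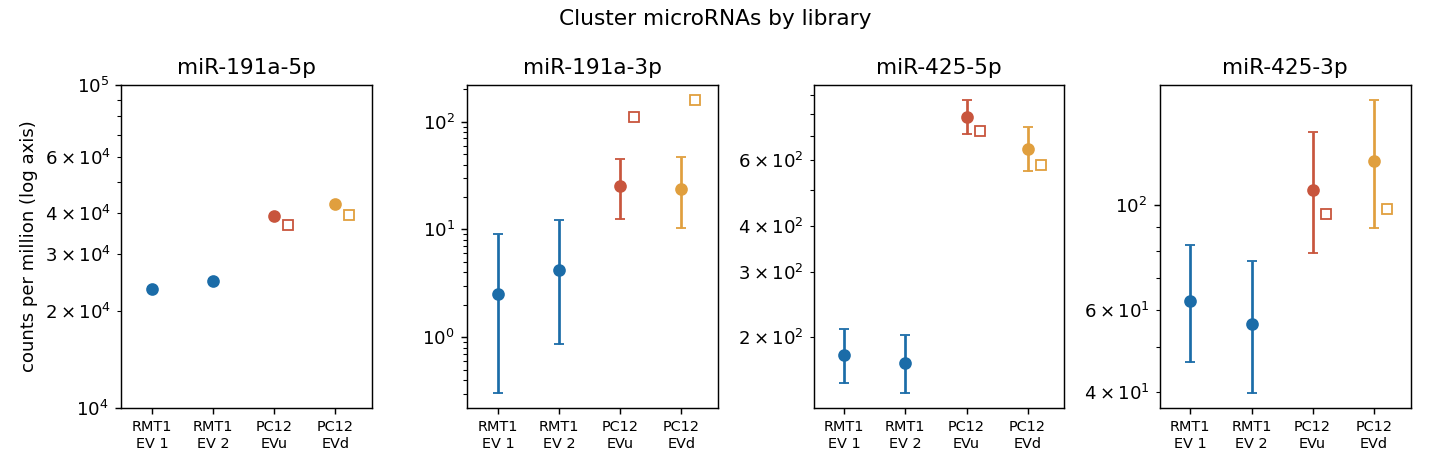
Level of the 4 members in each library, in CPM on a log axis whose range differs between panels. Filled circles are counts of the table of all 4 libraries with 95% exact binomial intervals (counting error only, smaller than the symbol for miR-191a-5p), and open squares are the same PC12 libraries in the PC12 table; miR-191a-3p is the member whose squares lie far from the circles, at 111 and 160 CPM against 25.2 and 23.7.

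The PC12 libraries were deposited in both tables, which gives a second count of the same libraries and not an independent sample. For miR-191a-5p the PC12 table gave 18918 counts in EVu and 15308 in EVd, or 1.10 and 1.06 times those of the other table. For miR-425-5p it gave 369 and 226, and for miR-425-3p 49 and 38, or between 0.905 and 1.07 times. miR-191a-3p stood apart, with 57 and 62 counts in place of 11 and 8, or 5.18 and 7.75 times as many. As CPM it stood at 111 in EVu and 160 in EVd in the PC12 table, against 25.2 and 23.7 in the other. Its level is therefore known only to within that difference, and RMT1 has no second count. miR-191b, a separate annotated microRNA on the minus strand whose sequence overlaps the locus of miR-191a-3p by 20 bases, had 0 counts in all 4 libraries, which allows a share of up to 0.000887% in the shallowest.

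Within a library the ratio of 2 members depends on no scaling, so it shows whether the cluster moved as a unit. There were 130 counts of miR-191a-5p per count of miR-425-5p in RMT1 EV 1 (95% exact binomial interval 111 to 155) and 145 in RMT1 EV 2 (121 to 174). In EVu there were 49.8 (44.8 to 55.6) and in EVd 66.2 (57.9 to 76.0). The RMT1 intervals overlapped each other and lay above both PC12 intervals, and the PC12 intervals did not overlap each other. With the counts of each cell line pooled, the ratio was 2.44-fold higher in RMT1 (exact conditional interval 2.10 to 2.83), or 1.29 on the log2 scale (1.07 to 1.503). The gap between the RMT1 libraries was 0.15 on that scale and that between EVd and EVu 0.41. The 2.44-fold difference compares these libraries, since each PC12 group has 1 library. It was 2.75-fold against EVu alone and 2.07-fold against EVd alone. EVd is the PC12 library with few blood-cell microRNAs, and whether that bears on the ratio was not tested.

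The arms of the miR-425 hairpin, which leave the same precursor in equal number, were also present in different proportion. The ratio of miR-425-5p to miR-425-3p was 2.86 (2.06 to 4.03) in RMT1 EV 1 and 3.05 (2.12 to 4.48) in RMT1 EV 2, against 7.32 (5.38 to 10.2) in EVu and 5.19 (3.72 to 7.41) in EVd. The 3p arm thus made up 25.9% and 24.7% of the hairpin's mature counts in RMT1 and 12.02% and 16.2% in EVu and EVd. Pooled by cell line the 5p to 3p ratio was 2.14-fold lower in RMT1 (-1.10 on the log2 scale, exact conditional interval -1.59 to -0.61). The intervals of both RMT1 libraries lay below that of EVu but overlapped that of EVd, and against EVd alone the difference was -0.82. With the PC12 table as the source of the PC12 counts the ratio was 7.53 in EVu and 5.95 in EVd, and the pooled difference -1.22.

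For miR-191a-5p and miR-425-3p, from different hairpins, no difference in ratio beyond counting error was detectable at this depth. There were 373 counts of miR-191a-5p per count of miR-425-3p in RMT1 EV 1, 441 in RMT1 EV 2, 365 in EVu and 343 in EVd, and all 4 intervals overlapped. The pooled log2 difference between the cell lines was 0.19 (-0.25 to 0.62), an interval that holds ratios of RMT1 to PC12 from 0.838 to 1.54. The arms of the miR-191 hairpin stood at 9317 and 5884 to 1 in RMT1 and at 1558 and 1803 to 1 in PC12, but at 332 and 247 to 1 in the PC12 table. Between cell lines that ratio differed 4.37-fold (1.58 to 14.97) within the table of all 4 libraries. With PC12 counts from the PC12 table it differed 25.2-fold, but RMT1 is not in that table, so this sets unlike counts side by side. The size of the difference is not settled by these files.

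**Figure D2:**
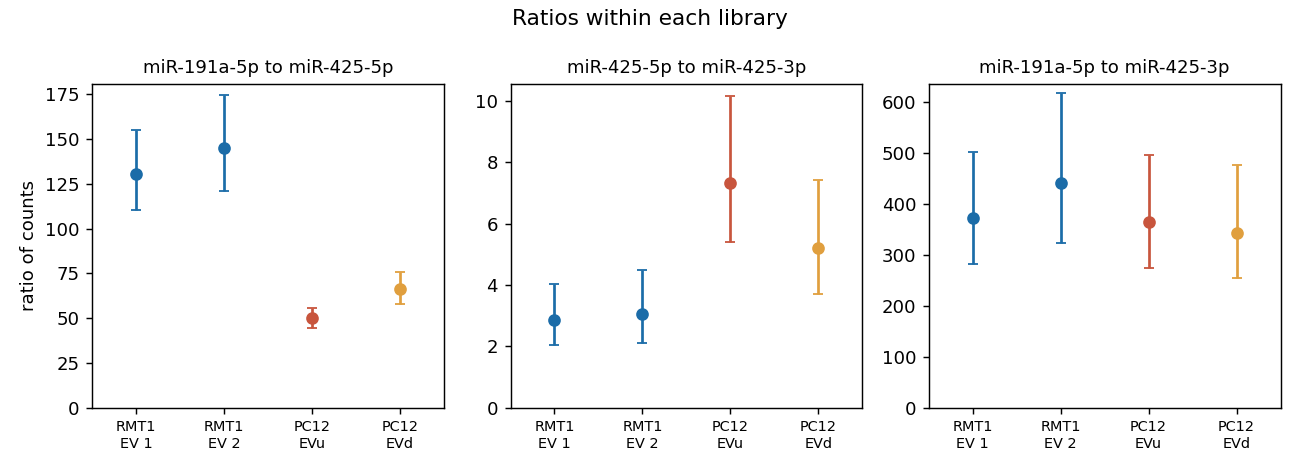
Ratio of counts within each library for 3 pairs of members, from the table of all 4 libraries, on linear axes from 0 with 95% exact binomial intervals (counting error only). miR-191a-5p to miR-425-5p is higher in both RMT1 libraries (130 and 145) than in EVu and EVd (49.8 and 66.2), miR-425-5p to miR-425-3p is lower (2.86 and 3.05 against 7.32 and 5.19), and all intervals overlap for miR-191a-5p to miR-425-3p.

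Levels between cell lines were then compared on the authors' log2 values, scaled over all 4 libraries. On that scale miR-191a-5p stood at 15.17 and 15.42 in RMT1 EV 1 and 2, 14.49 in EVu and 14.66 in EVd. RMT1 lay above PC12, the opposite of the order by share of counts. miR-425-5p stood at 8.15 and 8.24 in RMT1, 8.85 in EVu and 8.61 in EVd, lower in RMT1 by either measure. miR-425-3p stood at 6.63 in both RMT1 libraries, 5.98 in EVu and 6.24 in EVd, and miR-191a-3p at 1.99, 2.89, 3.88 and 3.84.

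For all 4 members the RMT1 and PC12 libraries did not overlap on this scale, as was the case for 91.4% of the 278 names whose linear values averaged at least 10. All 4 members passed that minimum, miR-191a-3p with a mean of 10.1 that rests on the PC12 libraries. limma fitted to these 278 names, with RMT1 against the mean of EVu and EVd and Benjamini-Hochberg adjustment at 0.05, called 2 of the 4 members, against 70.1% of all names tested (33.1% higher and 37.1% lower). That share of members is not above the background. miR-425-5p was lower in RMT1, at -0.54 ± 0.07 (SE, limma adjusted p = 0.0471). miR-425-3p was higher, at 0.53 ± 0.07 (limma adjusted p = 0.0471), so both arms of 1 hairpin were called in opposite directions. miR-191a-5p, at 0.72 ± 0.14 (limma adjusted p = 0.0767), and miR-191a-3p, at -1.42 ± 0.52 (limma adjusted p = 0.163), did not pass.

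The residual spread comes from the RMT1 pair alone, with 1 degree of freedom, so a pair that lies close together gives a small error. The RMT1 values of miR-425-3p differed by 0.00049 on the log2 scale although they rest on 50 and 40 counts. Its pooled counts in the authors' scaling gave 0.54 with a counting interval of 0.10 to 0.98. For miR-425-5p pooled counts gave -0.56 (-0.78 to -0.35), for miR-191a-5p 0.72 (0.70 to 0.75), and for miR-191a-3p, from 5 and 19 counts, -1.40 (-3.18 to 0.07). The miR-425-5p call was lost against EVu alone (limma adjusted p = 0.0502) and against EVd alone (0.0825), and the miR-425-3p call against EVd alone (0.0855). With EVu and EVd taken as 1 group of 2 samples, the limma adjusted p was 0.0169 for miR-191a-5p, 0.0435 for miR-191a-3p, 0.147 for miR-425-5p and 0.195 for miR-425-3p. edgeR's quasi-likelihood test on the recovered counts called 88.1% of the names (36% higher and 52.2% lower in RMT1). Among the members it called miR-191a-5p higher (0.52, edgeR adjusted p = 2.26e-05) and miR-425-5p lower (-0.74, edgeR adjusted p = 0.0102), while miR-425-3p was not called (0.32, edgeR adjusted p = 0.395). Which members were called therefore depended on the test and on how PC12 was grouped, and over the fits not scaled by the member itself the adjusted p ranged from 2.26e-05 to 0.121 for miR-191a-5p and from 0.00881 to 0.364 for miR-425-5p.

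The direction of the cluster's difference depended on the scaling. The authors' factors, whose method is not given in the sources used here, equalled edgeR's TMM factors (trimmed mean of M-values) for the recovered counts to within 3.64e-06%. With them miR-191a-5p was 0.72 higher in RMT1 on the log2 scale, and with DESeq2 size factors 0.65 higher. With totals that leave out the let-7 family and its relative miR-98 it was 0.56 higher (limma adjusted p = 0.0228), and with upper-quartile factors 1.60 higher (0.0119). By library totals it was lower, at -0.77 ± 0.05 (limma adjusted p = 0.0206). The difference thus turned sign between library totals and the 4 other general scalings, and it passed the test on both sides of 0. By library totals limma called 3 of the 4 members lower, where 52.9% of all names were, and the libraries of the cell lines did not overlap for any of the 4, as for 90.6% of names. With upper-quartile factors it called 2 of the 4 higher, where 39.6% of names were (66.9% in either direction).

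miR-425-5p was lower in RMT1 by -0.61 with DESeq2 size factors (limma adjusted p = 0.0521), by -0.70 with totals without let-7 and miR-98 (0.0315) and by -2.03 with library totals (0.00881). With upper-quartile factors it stood at 0.34 (0.0516), above 0. miR-425-3p lost its call with DESeq2 size factors (0.45, limma adjusted p = 0.0672), with totals without let-7 and miR-98 (0.36, 0.145) and in the DESeq2 test (0.48, DESeq2 adjusted p = 0.701). It was called higher with upper-quartile factors (1.40, limma adjusted p = 0.0266) and lower by library totals (-0.97, 0.0374). miR-191a-3p was below 0 in each of these, from -0.55 with upper-quartile factors to -2.91 by library totals.

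The median log2 difference of all 278 names moved with the scaling too, from -1.12 with the authors' factors to -2.59 by library totals and -0.24 with upper-quartile factors. Relative to that median, miR-191a-5p lay 1.84 higher with the authors' factors, 1.82 by library totals and 1.84 with upper-quartile factors. miR-425-5p lay 0.58, 0.56 and 0.58 above it and miR-425-3p 1.64, 1.62 and 1.64. A scaling by 1 factor per library shifts alike all names with counts in all 4 libraries, but a value with no counts is not moved. In the authors' scaling 173 of the 278 names lay below miR-191a-5p, 170 below miR-425-3p and 149 below miR-425-5p. Among the 197 names with counts in all 4 libraries the median was -0.05 in the authors' scaling, so miR-425-5p, at -0.54, lay below rather than above it. Relative to this median miR-191a-5p lay only 0.77 higher and miR-425-3p 0.58 higher, with 111 and 108 of the 197 names below them.

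**Figure D3:**
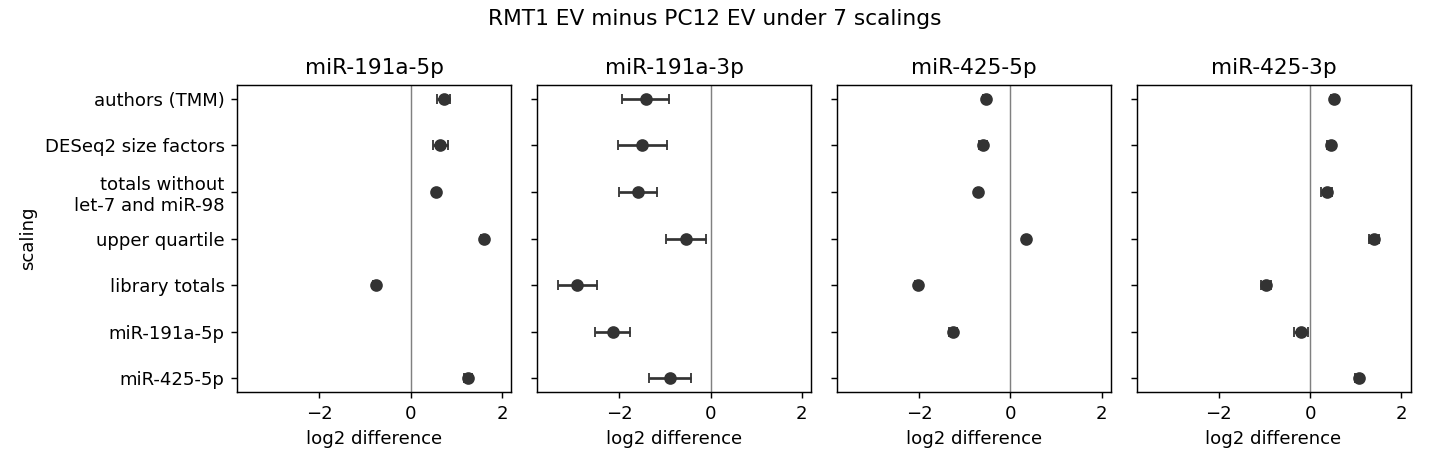
Difference of RMT1 EV minus PC12 EV (log2, horizontal axis) for each member under 7 scalings, with the limma standard error as bars; a scaling by a member is left out for that member. miR-191a-5p lies to the right of 0 with the authors' factors (0.72) and to the left by library totals (-0.77), and miR-425-5p to the left (-0.54 and -2.03) except with upper-quartile factors (0.34).

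Steadiness was described by the range of a name's log2 values, the highest library minus the lowest, over the 197 names with counts in all 4 libraries and a mean linear value of at least 10. In the authors' scaling the range was 0.93 for miR-191a-5p, a 1.91-fold span from EVu to RMT1 EV 2. It was 0.70 for miR-425-5p, 0.66 for miR-425-3p and 1.89 for miR-191a-3p. The median over the 197 names was 2.98, and 13 names had a smaller range than miR-191a-5p, 9 than miR-425-5p and 8 than miR-425-3p. Among names within 4-fold of the same mean level, 2 of 18 were steadier than miR-191a-5p and 3 of 81 steadier than miR-425-5p.

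By library totals miR-191a-5p had nearly the same range, 0.87, but now from RMT1 EV 1 up to EVd, and 17 of the 197 names were steadier. miR-425-5p spanned 2.21, a 4.63-fold difference between EVu and RMT1 EV 2, with 63 names steadier, and miR-425-3p spanned 1.15. With upper-quartile factors the order turned round, at 1.72 for miR-191a-5p and 0.50 for miR-425-5p. With DESeq2 size factors the 5p arms spanned 0.82 and 0.85, and with totals that leave out let-7 and miR-98 0.64 and 0.90. Scaled by each other, each spanned 1.54, a 2.91-fold range, which no scaling by 1 factor per library can change.

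Of 12 other microRNAs often used as references, all were listed and 11 passed the minimum. In the authors' scaling limma called 10 of these 11, against 70.1% of all names, with 5 higher in RMT1 (miR-93-5p, miR-423-5p, miR-26a-5p, let-7a-5p and miR-24-3p) and 5 lower (miR-103-3p, miR-423-3p, miR-25-3p, miR-361-5p and miR-186-5p), and miR-16-5p was not called (0.31, limma adjusted p = 0.1003); the twelfth, miR-484, fell below the minimum. By library totals it called 3 higher and 7 lower, where 23% and 52.9% of all names were (75.9% in either direction). With upper-quartile factors it called 6 higher and 3 lower, where 39.6% and 27.3% of all names were (66.9% in either direction). In the authors' scaling their median difference was 0.31, against -1.12 for all 278 names and -0.05 for the 197 with counts in all 4 libraries. All 11 candidates are among those 197. miR-16-5p and miR-93-5p turned below 0 by library totals and miR-361-5p above 0 with upper-quartile factors. The median range of the 11 was 2.35 in the authors' scaling. Of the 11, miR-16-5p and miR-361-5p, with ranges of 0.65 and 0.79, were steadier than miR-191a-5p there, and miR-16-5p was steadier than miR-425-5p. By library totals miR-26a-5p alone, with a range of 0.31, was steadier than miR-191a-5p, and 5 were steadier than miR-425-5p. miR-423-5p spanned 5.03 and miR-25-3p 3.84 in the authors' scaling.

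The 5 smallest ranges among the 136 names with counts in all 4 libraries and a mean linear value of at least 100 belonged to miR-99b-3p (0.42), miR-365-3p (0.43), miR-126a-3p (0.48), miR-99b-5p (0.59) and miR-16-5p (0.65). By library totals the same names spanned from 1.24 for miR-99b-3p to 2.03 for miR-99b-5p.

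**Figure D4:**
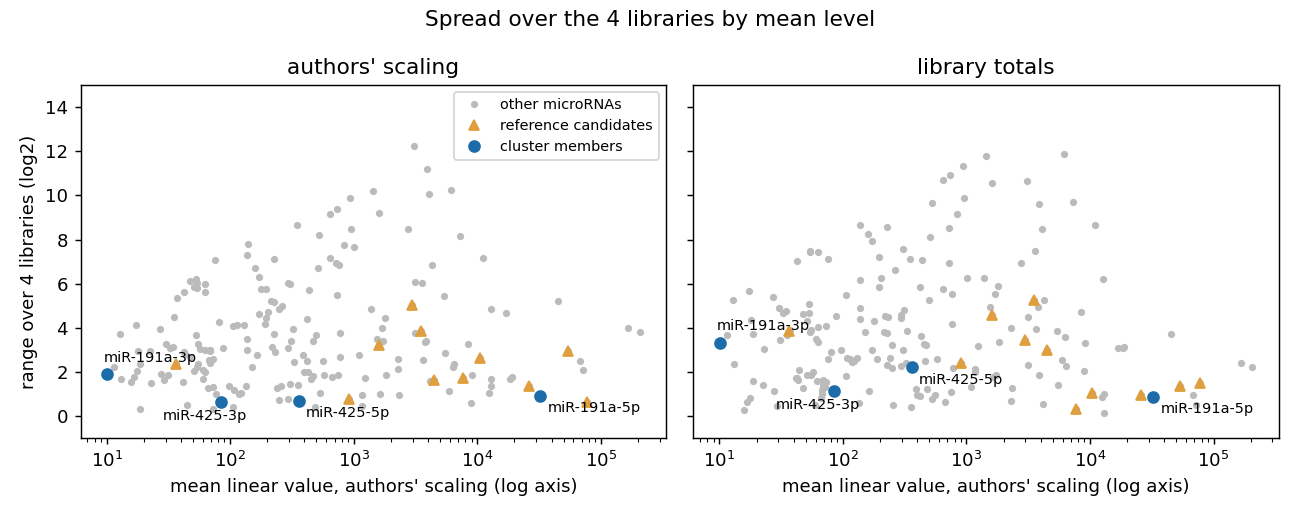
Range of each microRNA over the 4 libraries (log2, vertical axis) against its mean linear value in the authors' scaling (log axis), for the 197 names with counts in all 4 libraries, with the authors' scaling on the left and library totals on the right. Blue circles are the cluster members and orange triangles the reference candidates among these names; miR-191a-5p stays low in both panels (0.93 and 0.87) while miR-425-5p rises from 0.70 to 2.21.

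Used as the reference itself, each 5p arm gave a different picture of the other microRNAs. Scaled by miR-191a-5p, limma called 77 of the 278 names higher in RMT1 and 124 lower, so 38.3% of the calls were higher. Scaled by miR-425-5p, it called 109 higher and 88 lower, or 55.3% higher. The authors' factors gave 92 and 103, or 47.2% higher, library totals 64 and 147, or 30.3%, and upper-quartile factors 110 and 76, or 59.1%. The median difference of all names was -1.84 when miR-191a-5p was the reference and -0.58 when miR-425-5p was.

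EVd was compared with EVu on the raw counts of the PC12 table, as the log2 ratio of CPM with a pseudocount of 1 CPM and no test, since each has 1 library. miR-191a-5p stood at 36932 CPM in EVu and 39560 in EVd, a log2 ratio of 0.10 (95% counting interval 0.07 to 0.13). miR-425-5p stood at 720 and 584 CPM, a log2 ratio of -0.30 (-0.55 to -0.06). miR-425-3p, at 95.7 and 98.2 CPM, had a ratio of 0.04 (-0.61 to 0.68), and miR-191a-3p, at 111 and 160 CPM, one of 0.52 (-0.02 to 1.07). Of the 4 members 0 differed by a fold of 2, as 20.8% of 472 microRNAs averaging 10 or more counts did (65, or 13.8%, higher and 33, or 6.99%, lower in EVd). Of these 472, 49 had a ratio closer to 0 than miR-191a-5p and 142 closer than miR-425-5p. All 594 names of the PC12 table had counts in both EVu and EVd, so names counted in only 1 of them do not enter these shares. The CPM totals also hold 66 names that are not microRNAs.

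The other table gave 0.12 (0.09 to 0.15) for miR-191a-5p and -0.29 (-0.54 to -0.04) for miR-425-5p by its library totals, while miR-191a-3p moved to -0.09 (-1.61 to 1.36). The authors' deposited table lists 0.07 for miR-191a-5p and -0.33 for miR-425-5p. Scaled by miR-191a-5p, 59 microRNAs were at least 2-fold higher in EVd and 41 lower. Scaled by miR-425-5p, which was itself lower in EVd, 105 were higher and 18 lower.

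The names whose pattern over the 4 libraries was most like each member were found by the root mean square difference of the authors' log2 values, each centred on its own mean, among the 196 other names with counts in all 4 libraries. For miR-191a-5p the nearest was miR-425-3p of the neighbouring hairpin, at 0.13, followed by miR-23a-3p and miR-20a-5p at 0.17, miR-17-5p at 0.19 and miR-107-3p at 0.20. For miR-425-3p the nearest was miR-191a-5p, then miR-99b-3p at 0.14, miR-23a-3p at 0.15, miR-671 at 0.24 and miR-20a-5p at 0.25. Distances from miR-425-3p carry the counting error of its 50, 40, 47 and 42 counts in RMT1 EV 1, RMT1 EV 2, EVu and EVd. Whether its place as the nearest to miR-191a-5p holds beyond that error was not tested. miR-425-5p was nearest to miR-361-5p and miR-99b-5p, both at 0.09, then to miR-1839-5p at 0.13, let-7b-3p at 0.18 and miR-15a-5p at 0.19. miR-191a-5p stood 39th from it, at 0.65, and its own other arm, miR-425-3p, stood 32nd, at 0.56. miR-191a-3p, with its few counts, was nearest to miR-98-3p at 0.18, miR-674-3p at 0.19, miR-331-3p at 0.25, miR-103-3p at 0.28 and miR-29a-3p at 0.30. The median distance over all names was between 1.28 and 1.48. These distances rest on 4 libraries, in each of which all names share the library's depth and scaling, so they are a description and carry no test.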

How the data were processed

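Of the deposited tables, 2 were used. The PC12 table holds raw counts, per the file headers, beside the authors' log2 normalized values and log2 fold change. The table of all 4 libraries holds log2 values that the authors scaled over the 4 libraries, with 0 where nothing was counted. In each library 1 count is worth a fixed linear amount, and counts recovered from it were whole, within 0.1, for 100% of values. The submitters' processing notes name mm10, a build of the mouse genome, although the names listed are of rat. Which build the listed loci follow is not given. The aligner, the counter and any use of molecular identifiers were not given in the sources used here. Totals in the PC12 table were 512244 (EVu) and 386957 (EVd).

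limma 3.58.1 with a mean-variance trend was run on the log2 values; edgeR 4.0.16 (quasi-likelihood) and DESeq2 1.42.0 were run on recovered counts as alternatives. The limma step was checked on simulated data for the direction of large differences only, which does not bear on the p-values. Intervals are exact (scipy 1.17.1). P-values were adjusted over all names tested, except in DESeq2, whose own filtering left some names, among them miR-191a-3p, without an adjusted p. Alternatives were other scalings, filters, groupings of PC12, tests and leaving out each RMT1 library. Named microRNAs were the members, 12 reference candidates, the 5 names nearest to each member and the 5 with the smallest range. Members and lists were chosen with earlier results of these data known.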

Additional observations from a re-analysis of the deposited data

How the results depend on the processing

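For miR-191a-5p, RMT1 EV minus PC12 EV on the log2 scale reversed by library totals (-0.77). It passed the test, unlike in the reported fit, with upper-quartile factors (1.60), totals without let-7 and miR-98 (0.56), edgeR (0.52), DESeq2 (0.68), a minimum mean of 100, EVu and EVd as 1 group, or names with counts in all 4 libraries only, a setting chosen after seeing the data (0.72 in each of these 3). For miR-425-5p it reversed with upper-quartile factors (0.34) and no longer passed with DESeq2 size factors (-0.61), DESeq2 (-0.58), EVu alone (-0.65) or EVd alone (-0.42), nor with no filter, a minimum mean of 100, EVu and EVd as 1 group, or names with counts in all 4 libraries (-0.54 in each). Without 1 RMT1 library, which leaves no test, the differences were 0.60 to 0.84 for miR-191a-5p and -0.58 to -0.49 for miR-425-5p. The cause of the losses was not tested. In the reversals 1 factor per library shifts alike every name with counts in all 4 libraries.

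With no filter 192 names were lower in RMT1. EVd over EVu for miR-191a-5p was 0.17 on the authors' values of the table of all 4 libraries and 0.020 with upper-quartile factors on the counts of the PC12 table. Scaled by miR-425-5p, chosen after seeing the data, 105 microRNAs were higher in EVd and 18 lower. The range of miR-191a-5p was 1.72 with upper-quartile factors, 0.64 with totals without let-7 and miR-98, 1.54 scaled by miR-425-5p, and 0.69 to 0.93 without 1 RMT1 library. That of miR-425-5p was 2.21 by library totals, 0.85 with DESeq2 size factors, 0.50 with upper-quartile factors, 0.90 with totals without let-7 and miR-98, 1.54 scaled by miR-191a-5p, and 0.61 to 0.70 without 1 RMT1 library. The range of miR-191a-3p fell to 0.99 without RMT1 EV 1. The ratio of miR-191a-5p to miR-425-5p differed by 1.05 against EVd alone.

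Of 455 alternative values for 29 other named microRNAs, 368 kept direction and side of the threshold, 20 lost the call, 44 gained it and 23 reversed. By library totals these were miR-425-3p (-0.97), miR-16-5p (-1.18), miR-93-5p (-0.58), miR-99b-3p (-1.20), miR-23a-3p (-0.97), miR-20a-5p (-0.62), miR-17-5p (-0.40), miR-107-3p (-0.38) and miR-671 (-1.36). With upper-quartile factors they were miR-361-5p (0.19), miR-365-3p (0.80), miR-126a-3p (0.80), miR-99b-5p (0.42), miR-1839-5p (0.35), let-7b-3p (0.61) and miR-15a-5p (0.38). miR-671 also reversed with totals without let-7 and miR-98 (-0.026) and with edgeR (-0.039), miR-365-3p against EVu alone (0.081) and miR-126a-3p against EVd alone (0.17). Without 1 RMT1 library they ranged from -0.27 to 0.11 for miR-365-3p, -0.16 to 0.014 for miR-126a-3p and -0.027 to 0.30 for miR-671. TMM changed nothing. No paired analysis was possible because EVu and EVd have 1 library each, so the groups share fewer than 2 replicate numbers. Depth limits miR-191a-3p and miR-425-3p most.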
